A study of Caenorhabditis elegans with 2 samples.

Results

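Transfer RNA (tRNA) genes are short genes read by RNA polymerase III. Their promoter lies inside the gene, in an A box and a B box that the factor TFIIIC recognises, and transcription ends at a run of T just past the gene. Many tRNA genes exist in copies of identical sequence that differ only in what flanks them, and in C. elegans a large share of them lies on the X chromosome. The tRNA genes described here are all nuclear genes annotated as tRNA in Ensembl release 115, 612 of 46890 nuclear genes. A tRNA gene is called bound when a peak summit of the conservative list lies between 1000 bp upstream and 200 bp downstream of its start. By this rule 94 genes were bound and 518 were not.

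The peaks come from chromatin immunoprecipitation and sequencing of Y79H2A.3, a gene whose product is annotated as a C2H2-type zinc finger protein. The whole worms were strain RW12273, in which allele st12273[Y79H2A.3::TY1::EGFP::3xFLAG] was made on chromosome III by CRISPR insertion, collected as young adults of 63 hours after synchronisation as starved L1 larvae following bleaching, and the tagged protein was precipitated with a GFP antibody. There is 1 group of 2 biological replicates, all animals carry the tag, and untagged, input or other GFP precipitations were not used here. The 8 deposited lists on ce11 are thresholded or ranked by the irreproducible discovery rate (IDR), each for replicate 1, replicate 2, the pooled reads and the comparison of both replicates, whose thresholded list is the conservative one. They hold no read counts, so depth and the counting error of each height are unknown. Heights are the authors' signal value, of unstated scale, and are compared within a list only. A whole worm mixes many cell types, so how many cells hold a site and how strongly each holds it cannot be told apart.

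The sequences below show what the copies share and where they differ. The first 3 are the families of identical copies with the highest bound shares of all with 6 or more copies, and the next 3 are families with no bound copy, all read from the RefSeq ce11 genome. Each was read from 1 copy, at chrII:6565248-6565320 (+), chrII:4565389-4565460 (+), chrII:10302399-10302470 (+), chrIII:7978471-7978543 (-), chrX:6220070-6220142 (-) and chrX:353255-353336 (-), in the order given. Capitals mark the anticodon and, where present, the B box match GTTCGANNC.
tRNA-Lys TTT: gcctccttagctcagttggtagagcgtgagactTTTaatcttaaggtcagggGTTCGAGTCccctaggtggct
tRNA-Ala AGC: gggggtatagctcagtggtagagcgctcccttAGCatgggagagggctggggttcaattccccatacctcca
tRNA-Pro TGG: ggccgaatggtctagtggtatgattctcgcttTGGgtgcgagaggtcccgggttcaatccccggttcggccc
tRNA-Phe GAA: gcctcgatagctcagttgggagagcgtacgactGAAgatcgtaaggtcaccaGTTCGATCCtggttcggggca
tRNA-Arg ACG: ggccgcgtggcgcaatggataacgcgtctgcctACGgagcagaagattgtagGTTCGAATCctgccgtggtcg
tRNA-Leu AAG: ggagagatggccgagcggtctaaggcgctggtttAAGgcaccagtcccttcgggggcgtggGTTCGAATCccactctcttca

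Binding was found at a minority of tRNA genes, and most summits lay on or within 100 bp of a gene. The bound share was 15.4% (94 of 612, exact 95% interval 12.6 to 18.5), beside 2.20% of all nuclear genes. In the pooled list 77 tRNA genes were bound (12.6%) beside 1.97% of all genes. Replicate 1 alone gave 27 (4.41%) beside 0.998%, and replicate 2 alone gave 23 (3.76%) beside 0.868%. The share at tRNA genes was above the background in each list, but so were those of small nucleolar (snoRNA) and small nuclear RNA (snRNA) genes. In the conservative list 66 of 346 snoRNA genes (19.1%) and 19 of 129 snRNA genes (14.7%) were bound. Their shares were 11.0% and 6.98% in replicate 1, and 9.25% and 6.20% in replicate 2, above the tRNA shares there. The number of bound tRNA genes differed several-fold between lists. Of the 27 genes of replicate 1, 23 were among the 94, as were 20 of the 23 of replicate 2, and 11 genes were bound in all 3 of these lists. In the pooled list 66 of its 77 genes were among the 94, and 27 of the 94 were bound in no other of these lists. Genes share peaks, so these intervals cover counting over genes only. In all, 79 peaks served the 94 genes, and 21 of them lay in the windows of several tRNA genes.

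Summits gathered at the gene body, where the A and B boxes are. Of the 79 peaks, 75 had their summit within 100 bp of a tRNA gene. Relative to the nearest tRNA gene, 45 summits were inside it, 27 upstream and 7 downstream. The median summit lay 13 bp past the gene start, with quartiles at -6.5 and 43.5 bp. The peaks were uniform in width, 78 of the 79 spanning 296 bp. In the ranked list, which keeps weak peaks, the first 100 bp of tRNA genes held 40.8 summits per 100 genes and the 100 bp before the start 23.9, against 8.33 in the 100 bp beyond that. The commonest bin was the same in both lists.

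**Figure D1:**
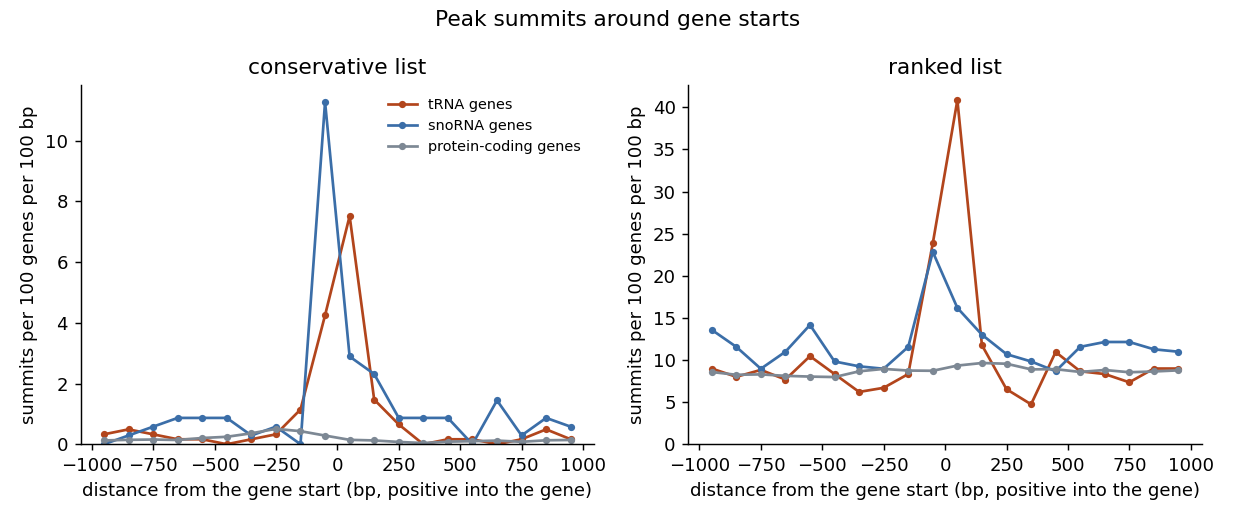
Peak summits per 100 genes in bins of 100 bp by distance from the gene start, for tRNA, snoRNA and protein-coding genes, in the conservative list (left) and the ranked list (right). Summits at tRNA genes are most frequent in the first 100 bp of the gene in both lists, at 7.52 and 40.8 per 100 genes.

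The X chromosome held few peaks, and most of those in the conservative list lay at tRNA genes. In the conservative list 36 of 67 X peaks (53.7%, exact 95% interval 41.1 to 66.0) were in a tRNA gene window, against 43 of 954 autosomal peaks (4.51%, 3.28 to 6.02). The difference was 49.2 percentage points (Newcombe 95% interval 37.3 to 60.7). Each replicate alone showed the same contrast, with 9 of 23 X peaks against 13 of 419 autosomal peaks in replicate 1, and 6 of 15 against 13 of 378 in replicate 2. In the pooled list it was 22 of 49 against 43 of 885. The X chromosome holds 45.1% of tRNA genes but 12.8% of all nuclear genes, and 6.56% of conservative peaks but 45.6% of those in tRNA windows. Of the 10 tallest X peaks, 4 were in a tRNA window.

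**Figure D2:**
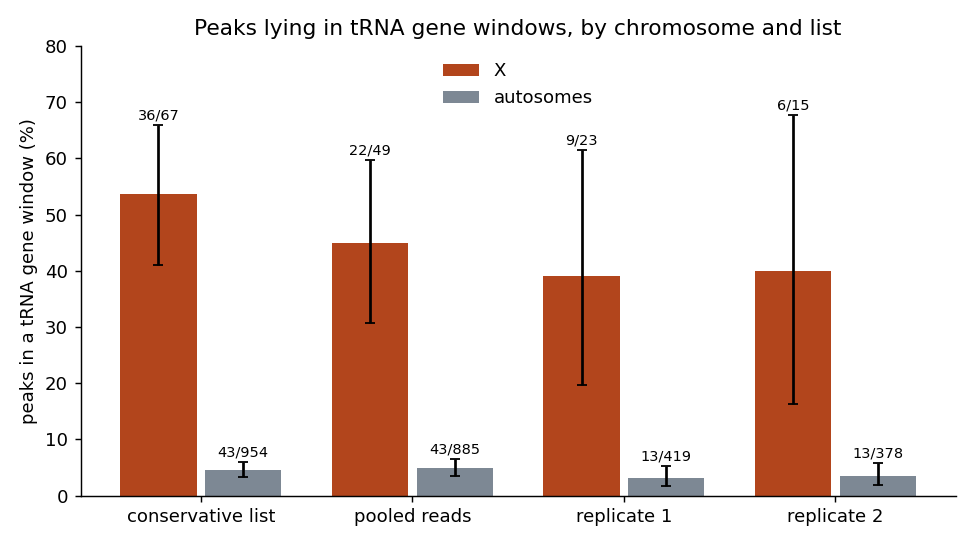
Percent of peaks with a summit in a tRNA gene window, on X and on autosomes, in the 4 thresholded lists. Bars are shares with exact 95% intervals and the counts stand above; in each list the X share is higher, from 39.1% to 53.7% against 3.1% to 4.86%.

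Per gene, the shares of tRNA genes bound on X and on the autosomes differed by less than counting error, while other genes were bound less often on X. On X 46 of 276 tRNA genes were bound (16.7%, 12.5 to 21.6), against 48 of 336 on the autosomes (14.3%, 10.7 to 18.5), beside 1.69% of all genes on X and 2.28% of all genes on the autosomes. The difference of 2.38 percentage points had an interval that holds 0 (Newcombe 95% interval -3.33 to 8.27), and it was below 0 in the pooled list (-1.80) and in replicates 1 and 2 alone (-0.12 and -0.25). In replicate 1 the counts were 12 on X and 15 on autosomes, and in replicate 2 they were 10 and 13. Among all other genes 56 of 5746 were bound on X and 882 of 40532 on the autosomes, and among protein-coding genes 15 of 2731 and 560 of 17242. None of the 33 snoRNA genes on X was bound, which allows a share of up to 10.6%, against 66 of 313 on the autosomes.

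As a ratio of shares, X over autosomes, tRNA genes were at 1.17 (95% interval 0.80 to 1.69) and all other genes at 0.45 (0.34 to 0.59). The tRNA ratio was 2.60 times that of other genes (1.65 to 4.12) in the conservative list, 3.44 times (1.42 to 8.35) in replicate 1 and 4.50 times (1.65 to 12.3) in replicate 2. In percentage points the same contrast was 3.58 with an interval that holds 0 (-2.14 to 9.47), since other genes are bound rarely on any chromosome. The intervals of these contrasts treat tRNA genes and other genes as independent sets. The sets share peaks, so the intervals cover counting over genes only and are not valid as error of the contrast. Peaks at tRNA genes account for most other X genes called bound. When the 79 peaks were left out, 16 of the 56 bound X genes other than tRNA genes were still bound (0.28% of 5746, exact 95% interval 0.16 to 0.45) and 40 were not. On the autosomes 823 of 882 were still bound.

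**Figure D3:**
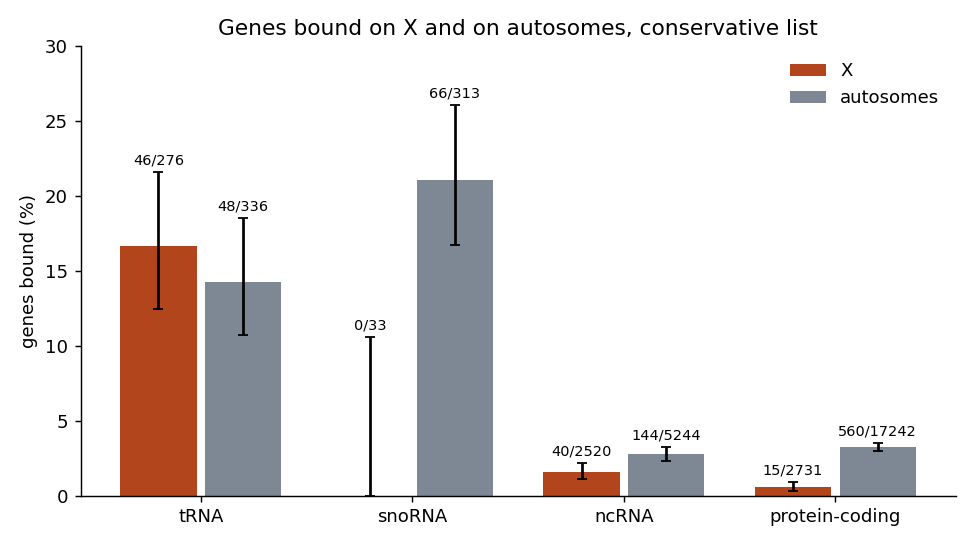
Percent of genes bound in the conservative list on X and on autosomes for tRNA, snoRNA, ncRNA and protein-coding genes, with exact 95% intervals and counts above the bars. The tRNA bars overlap in their intervals, at 16.7% on X and 14.3% on the autosomes, while protein-coding genes are at 0.55% and 3.25%.

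Among single chromosomes the bound share ran from 8.45% on IV (6 of 71) to 22.8% on II (13 of 57), with 10 of 66 on I, 9 of 64 on III and 10 of 78 on V. The exact intervals of the lowest and the highest overlap, at 3.16 to 17.5 and 12.7 to 35.8. Heights of bound genes had medians of 79.8 on X and from 73.7 on III to 85.7 on I across the autosomes. Bound genes all passed the same threshold, which limits how far these heights can differ. Over all tRNA genes, with 0 where there was no summit, the ranked medians ran from 34.8 on V to 49.9 on II.

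In the ranked list the highest summit in the window had a median signal value of 42.4 over all tRNA genes, those without a summit counted as 0, against 12.1 over all other genes and 21.4 over protein-coding genes. A ranked summit was present at 534 of 612 tRNA genes (87.3%) and at 53% of other genes. Over snoRNA and snRNA genes the median was 35.7 and 32.3, and a ranked summit was present at 80.3% and 72.9%. The tRNA median was 40.9 on X and 44.4 on the autosomes, 19.4 and 20.6 in replicate 1, and 22.0 and 25.3 in replicate 2. X was thus lower by a small amount in each replicate. By IDR, 206 tRNA genes reached a -log10 of at least 1 in the ranked list, 94 reached 2 and 19 reached 3.

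The tallest tRNA peak, at 233 in the conservative list, lies at ZK994.t2 on V, a tRNA-Lys gene in an intron of the peroxidasin gene pxn-1, but its summit is 899 bp upstream of the gene and the peak is shared with a snoRNA gene. Replicates 1 and 2 gave 101 and 129 there. Within 100 bp of the gene, ZK994.t2 reached 30.3 in the ranked list. It is therefore bound by the rule and not by a summit on the gene.

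The tallest peak on a tRNA gene was that of sup-5 (chrIII:8678497-8678568), a tRNA-Trp gene known for alleles that suppress amber stop codons, which lies in an intron of fli-1. Its signal value was 149 in the conservative list, with 70.6 in replicate 1 and 75.1 in replicate 2, and the summit lay 10 bp upstream of the gene. The other 9 copies of identical sequence were not bound, and the median over the family was 14.9. C33G3.t2 on X, a tRNA-Lys gene outside any protein-coding gene, followed with 145 and had its summit inside the gene. It had 63.5 and 75.8 in replicates 1 and 2. F15G9.t1 and F15G9.t2, tRNA-Ala genes 87 bp apart in an intron of the hemicentin gene him-4 on X, share a peak of 126 whose summit lies between them, with 61.7 and 77.2 in the replicates. These sites stood in both replicate lists.

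ZC455.t1 on V, a tRNA-Ser gene, had a peak of 125 (58.7 in replicate 1 and 64.0 in replicate 2). On X, M02F4.t1 and M02F4.t2, a tRNA-Gly and a tRNA-Glu gene 117 bp apart, shared a peak of 122 (52.5 and 67.3 in the replicates), and the tRNA-Ser gene C53C7.t1 had 113 (46.5 and 61.5). These too were in both replicate lists. C52E12.t2 on II, a tRNA-Thr gene in the kinesin gene unc-104, reached 105 and was in the list of replicate 1 but not of replicate 2 at its window. The tallest on I was F15D3.t1, a tRNA-Lys gene, with 100.1, and the tallest on IV was C09B9.t1, also tRNA-Lys, with 91.3. K04C2.t3 on III, an intronic tRNA-Lys gene in brd-1, had 99.98 and F17H10.t1 on X, a tRNA-Gly gene in snx-17, had 98.8. F15D3.t1 was in both replicate lists and K04C2.t3 in that of replicate 1 only, while C09B9.t1 and F17H10.t1 were in neither.

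Both of these tall tRNA-Ser genes are printed with 50 bases on each side, at chrV:12780336-12780517 (-) and chrX:13046528-13046709 (+) of RefSeq ce11, to show a gene under a tall peak in its surroundings. Capitals mark the gene, and a run of TTTT follows within 20 bases of its end, as at 602 of 612 tRNA genes.
ZC455.t1: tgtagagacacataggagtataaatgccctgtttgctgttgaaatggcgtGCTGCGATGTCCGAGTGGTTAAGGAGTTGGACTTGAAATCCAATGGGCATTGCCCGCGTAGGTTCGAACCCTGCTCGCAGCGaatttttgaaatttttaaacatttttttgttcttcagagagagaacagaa
C53C7.t1: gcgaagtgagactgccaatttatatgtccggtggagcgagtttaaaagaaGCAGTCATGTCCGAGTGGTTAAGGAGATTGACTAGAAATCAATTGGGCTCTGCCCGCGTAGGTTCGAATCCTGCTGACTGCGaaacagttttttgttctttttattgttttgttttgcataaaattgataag

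Tall peaks are few among tRNA genes by the standard of the whole list. Of the 79 peaks, 8 were among the tallest 255 peaks of all 1021, 27 among the 255 after these, and 2 in the tallest 100. The median height was 80.4 in tRNA windows and 83.0 elsewhere, and the upper quartiles were 89.3 and 107. The tRNA peaks therefore gather in the middle and lower part of the range.

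At the other edge of the rule, the bound genes of lowest height were T25B6.t2 on X (57.9), F56F4.t1 on I (61.9) and Y7A5A.t1 on X (62.1). Several unbound genes were higher than these in the ranked list. T04D3.t2 on I reached 79.5, with 59.7 in replicate 2 and no summit in replicate 1, and W06D4.t1 on I reached 77.8, with 23.8 and 44.0 in replicates 1 and 2. C17D12.t1 and C17D12.t2, both tRNA-Lys genes on I, shared 74.6 (24.8 and 42.6), and T28C12.t1 on V, a tRNA-Cys gene, had 74.5 (26.1 and 43.5). The -log10 IDR of these unbound genes was from 0.70 to 1.88.

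Isotypes, that is the amino acids the tRNAs carry, had bound shares whose exact intervals all overlap. Lysine tRNA genes were at the top with 14 of 46 bound (30.4%, exact 95% interval 17.7 to 45.8), 7 in replicate 1 and 5 in replicate 2. Alanine followed with 8 of 34 (23.5%), valine with 7 of 31 (22.6%) and proline with 9 of 42 (21.4%). Alanine had 3 in each replicate alone and valine 3 and 2 in replicates 1 and 2, but proline had 0 in both. Among lysine genes, those with anticodon TTT had 9 of 15 bound (exact 95% interval 32.3% to 83.7%) and those with CTT 5 of 30 (16.7%, 5.64 to 34.7). Histidine and methionine genes had 1 of 20 each (5.00%), and arginine genes 3 of 44 (6.82%, 1.43 to 18.7). The single selenocysteine gene was not bound. These shares cover 21 isotypes, chosen for mention after their values were seen.

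Identical copies could be compared directly. Families of 6 or more copies number 29 and hold 387 genes, of which 65 were bound (16.8%, 13.2 to 20.9). Genes with 2 to 5 copies had 15 of 82 bound (18.3%, 10.6 to 28.4), and single-copy genes 14 of 143 (9.79%, 5.46 to 15.9). In this order the counts were 20, 3 and 4 in replicate 1, and 14, 6 and 3 in replicate 2. The run of TTTT follows 134 of the 143 single-copy genes and 386 of the 387. The tRNA-Lys TTT family, printed first above, had the highest share, with 9 of its 14 copies bound (64.3%, 35.1 to 87.2), of which 8 have a summit within 100 bp. It was picked for this after its values were seen. Its median ranked signal of 77.4 was the highest of the 29 families, as were its medians in replicate 1 (33.3) and replicate 2 (40.9). The copies lie on II, III, IV, V and X. The tRNA-Ala AGC family had 5 of 15 bound (33.3%) and tRNA-Pro TGG 7 of 24 (29.2%). The lists of single replicates held 3 tRNA-Lys TTT copies each, 2 tRNA-Ala AGC copies in replicate 1 and 1 in replicate 2, and 0 tRNA-Pro TGG copies in both. No copy was bound of tRNA-Phe GAA (10 copies), of the tRNA-Arg ACG family that lies wholly on X (10 copies) or of the tRNA-Leu AAG family that lies wholly on X (9 copies), which allows shares of up to 30.8%, 30.8% and 33.6%, nor of a tRNA-Met family of 9 copies.

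**Figure D4:**
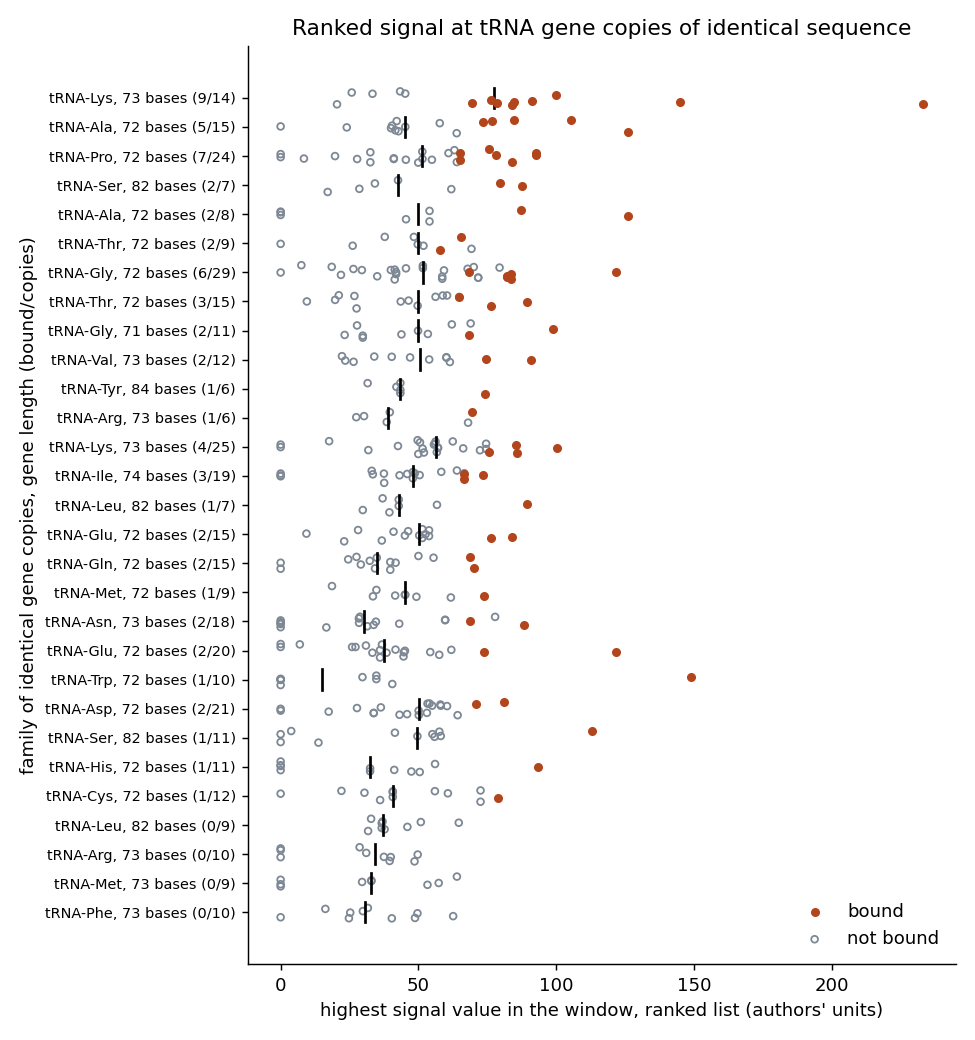
Highest signal value in the ranked list for each copy of the 29 families of identical tRNA genes, with bound copies filled, other copies open and the family median as a line; labels give isotype, length and bound over all copies. The tRNA-Lys family at the top has 9 of 14 copies bound and a median of 77.4.

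Within the tRNA-Lys TTT family, the copies fell into a higher and a lower set. The 9 bound copies had ranked signals between 69.5 (ZK994.t1) and 233 (ZK994.t2), and the other 5 between 20.5 (Y70C5A.t1) and 45.2 (W07G4.t1). Bound copies ran from 28.7 to 101 in replicate 1 and from 36.4 to 129 in replicate 2. The other copies ran from 0 to 29.2 in replicate 1 and from 0 to 22.2 in replicate 2, and in replicate 2 the sets did not overlap, while in replicate 1 F43C9.t1 at 29.2 was above ZK994.t1 at 28.7. ZK994.t2 belongs to the higher set through its summit 899 bp away. Within 100 bp of the gene it had 30.3 in the ranked list, 17.1 in replicate 1 and no summit in replicate 2, inside the range of the copies that were not bound. Height was part of what made them bound, so this is a description.

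**Figure D5:**
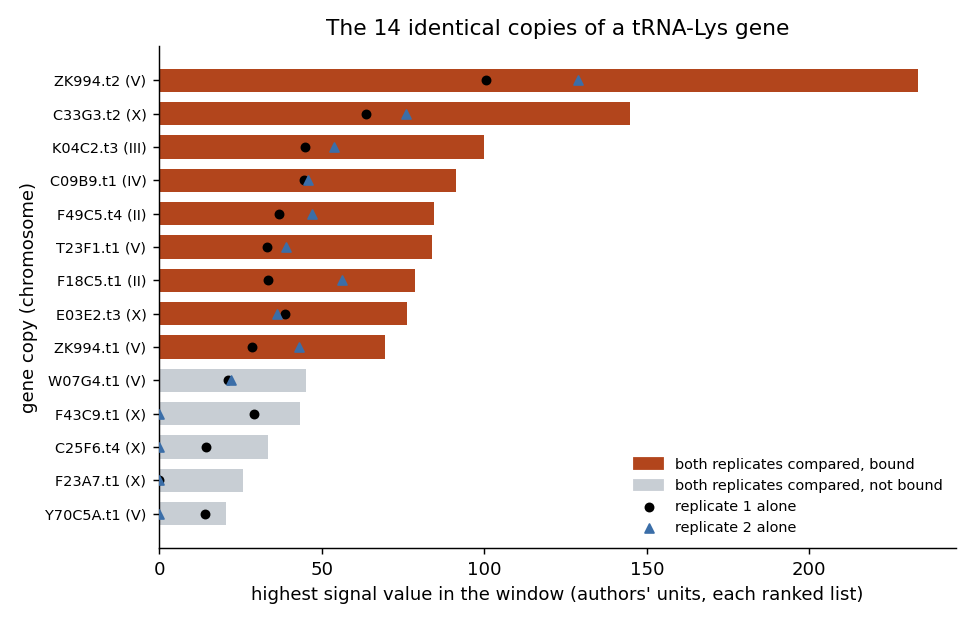
Highest signal value in the window for the 14 copies of the tRNA-Lys TTT gene: bars for the ranked comparison of both replicates, points for replicate 1 and triangles for replicate 2. The 5 copies that were not bound stand at 45.2 or less, and the top bar, ZK994.t2, is a summit 899 bp from the gene.

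Identical inside the gene, these copies have different sequence upstream. The 60 bases before the gene and its first 12 bases, in capitals, are shown for the 3 tallest bound copies with a summit on or next to the gene, C33G3.t2 (chrX:14064007-14064078, -), K04C2.t3 (chrIII:6887789-6887860, -) and C09B9.t1 (chrIV:5038860-5038931, +), and for the 3 lowest copies, C25F6.t4 (chrX:5451265-5451336, -), F23A7.t1 (chrX:16217956-16218027, -) and Y70C5A.t1 (chrV:16622120-16622191, -).
C33G3.t2: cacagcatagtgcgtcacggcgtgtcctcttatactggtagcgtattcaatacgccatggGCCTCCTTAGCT
K04C2.t3: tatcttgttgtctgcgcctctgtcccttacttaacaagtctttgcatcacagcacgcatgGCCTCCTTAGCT
C09B9.t1: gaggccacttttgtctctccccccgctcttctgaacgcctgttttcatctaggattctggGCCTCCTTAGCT
C25F6.t4: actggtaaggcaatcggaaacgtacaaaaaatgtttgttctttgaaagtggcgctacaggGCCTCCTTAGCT
F23A7.t1: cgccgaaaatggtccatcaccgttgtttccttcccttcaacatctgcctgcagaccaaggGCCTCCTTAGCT
Y70C5A.t1: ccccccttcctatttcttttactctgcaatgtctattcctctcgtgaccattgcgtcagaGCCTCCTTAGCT
Over the 100 bases upstream, the median share of G and C was 44.5% in the 94 bound genes and 41.0% in the 518 others, with quartiles of 40 to 50 and 35 to 47, so the groups overlap widely. On X the medians were 43.0% and 38.0%, and on the autosomes 46.0% and 43.0%. By the lists of single replicates they were 44.0% against 42.0% in replicate 1 and 43.0% against 42.0% in replicate 2.

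Genes with and without a match to a fixed promoter box pattern were bound at shares inside each other's intervals in the conservative list. The B box match GTTCGANNC, searched on the gene strand, was in 441 of 612 tRNA genes, and 69 of those were bound (15.6%, exact 95% interval 12.4 to 19.4), against 25 of the 171 without it (14.6%, 9.69 to 20.8). For the A box match (TGG, any 3 bases, AG, any 2 bases, then G) it was 47 of 295 (15.9%) against 47 of 317 (14.8%). Each match is to 1 fixed pattern, and both followed isotype. The A box match was in 1 of 46 lysine and 0 of 34 alanine genes but 41 of 42 proline genes. The B box match was in 45 of 46 lysine genes but 5 of 42 proline and 0 of 27 aspartate genes. A gene without a match need not lack the box, so these shares do not compare genes with and without the box. In single replicates 22 and 20 genes with the B box match were bound (4.99% and 4.54%), against 5 and 3 without it (2.92% and 1.75%), and 11 and 10 with the A box match against 16 and 13 without it. Within 50 bp of the summit, on either strand, GTTCGANNC was found at 32 of 79 peaks in tRNA windows (40.5%) against 21 of 942 other peaks (2.23%). Windows of tRNA genes hold the box by their make-up. The hexamer CGCGCC, searched on both strands, was found at 2 of the 79 (2.53%, exact 95% interval 0.31 to 8.85) against 104 of the 942 (11.0%, 9.11 to 13.2).

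Genes in clusters, that is with another tRNA gene within 1000 bp, were not bound more often than lone genes beyond counting error. Of 236 clustered genes 42 were bound (17.8%, 13.1 to 23.3), against 52 of 376 lone genes (13.8%, 10.5 to 17.7), a difference of 3.97 percentage points (Newcombe 95% interval -1.85 to 10.2). The counts were 12 and 15 in replicate 1, and 8 and 15 in replicate 2. In replicate 2 the direction differed by chromosome. On X it was 8 of 135 clustered against 2 of 141 lone genes, and on the autosomes 0 of 101 against 13 of 235. In replicate 1 these were 6 against 6 on X and 6 against 9 on the autosomes. When each peak went to its nearest tRNA gene only, the difference was -3.24, since 1 peak can lie in several windows. Counted by locus, 22 of 100 loci of several genes were bound against 52 of 376 single genes, a difference of 8.17 (0.18 to 17.8), but a locus of several genes covers more sequence. Among loci of 2 genes, 10 of 37 divergent pairs were bound (27.0%, 13.8 to 44.1). So were 3 of 15 convergent pairs and 4 of 26 pairs on the same strand, with overlapping intervals. In this order the counts were 3, 0 and 3 in replicate 1, and 2, 0 and 1 in replicate 2.

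The longest clusters, of 6 genes each, hold 12 genes. None was bound in the conservative list, which allows a share of up to 26.5%. The 6 genes F22F1.t2 to F22F1.t7 on X had ranked signals of 0 to 58.1, and the 6 tRNA-His genes F28H6.t2 to F28H6.t7 on X had 0 to 32.5. Of the 8 loci with 4 or more genes, 1 had bound genes in the conservative list. It was T01B4.t1 to T01B4.t4 on X, where 2 of 4 tRNA-Val genes were bound and the ranked signals ran from 34.6 to 89.1. In the pooled list 4 of the 16 genes in loci of 4 genes were bound, among them C12C8.t5 and C12C8.t2 on I.

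Intronic and intergenic tRNA genes were bound at shares that differed by less than counting error. Intergenic here means outside every protein-coding gene, whatever other genes lie there. Of 283 genes inside a protein-coding gene and touching none of its exons, 41 were bound (14.5%, 10.6 to 19.1), against 50 of 319 intergenic genes (15.7%, 11.9 to 20.1), a difference of -1.19 points (Newcombe 95% interval -6.88 to 4.62). In replicate 1 they were 12 and 14, and in replicate 2 they were 11 and 12. The 10 genes that touch an exon of a protein-coding gene had 3 bound. When genes of other biotypes, except tRNA and piRNA, also counted as hosts, the groups changed in size. Then 354 tRNA genes touched an exon (63 bound, 17.8%), 113 were intronic (15 bound, 13.3%) and 145 were intergenic (16 bound, 11.0%). Intronic genes on the strand opposite to the host were bound in 21 of 122 cases (17.2%, 11.0 to 25.1). Those on the strand of the host were bound in 20 of 160 (12.5%, 7.81 to 18.6). The direction was the other way in replicate 1, with 4 (3.28%) and 8 (5%), while replicate 2 had 6 (4.92%) and 5 (3.1%). Of the 226 tRNA genes with a protein-coding start within 1000 bp 32 were bound (14.2%, 9.89 to 19.4), against 62 of the 386 farther from one (16.1%, 12.5 to 20.1). In replicate 1 these were 4 (1.77%) against 23 (5.96%), and in replicate 2 they were 7 (3.1%) against 16 (4.15%).

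Most tRNA gene bodies are repeated sequence, while most windows around them are not. The median tRNA gene body held 0% of 31-base words that occur once in the genome, in bound and other genes alike. All 94 bound genes had windows with at least 50% of such words, and of the 28 genes with less none was bound, which allows a share of up to 12.3%. How the authors treated reads that align in several places is not given in the sources used here, so its part in these counts was not tested. Heights in both replicates were moderately related, with a Pearson correlation of 0.47 on the log10 scale and a Spearman correlation of 0.48 across the 395 genes with a summit in both ranked lists, which share peaks and are not independent. Among the 93 bound genes with a summit in both, they were 0.41 and 0.17.

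Genes for the machinery that makes tRNA were counted in 2 lists. Of 19 genes in a list around RNA polymerase III transcription, 2 were bound beside 2.88% of all protein-coding genes, snpc-3.4, a subunit gene of the complex that starts small nuclear RNA genes (135, with 59.8 and 75.1 in replicates 1 and 2), and larp-1, a La-related RNA-binding protein gene (120, with 60.9 and 59.6). The tie of larp-1 to this list is loose, and without it 1 gene was bound. Replicate 1 alone had 3 bound members and replicate 2 alone had 2. The next in the ranked list were rpac-19, a polymerase subunit gene (71.1), and tftc-3, a TFIIIC subunit gene (63.5), and neither was bound. Of 13 matched genes for tRNA processing and modification none was bound in the conservative list, while replicate 2 alone had 1. The ranked median was 24.7 in the first list and 24.0 in the second, beside 21.4 over protein-coding genes.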

How the data were processed

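The authors deposited 8 peak lists on ce11, per the labels, with a signal value (peak height, scale not stated) and, in the ranked lists, the −log10 of the global IDR, which sets the authors' threshold. Other deposited columns (coordinates and summit offsets, of unit other) were read as given. Aligner, peak caller and control: not given in the sources used here. Read counts were not used here, so depth and counting error per peak are unknown. Of 120 columns in the lists, 76 were not used.

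Summits were set against Ensembl release 115 models of the 6 nuclear chromosomes. Names and isotypes came from RefSeq by gene ID for 612 and 607 genes, and anticodons were read from the genome for 554 (a loop of 7 bases with at least 4 of 5 stem pairs). Shares have exact (Clopper-Pearson) 95% intervals, and differences Newcombe ones. Ratios of shares have intervals on the log scale, and contrasts of tRNA genes with other genes treat both sets as independent. With 1 group no samples are set against each other, and an exact test of a contrast over 2 replicates allows no two-sided p under 0.5, so no p is given, and a difference counts as beyond counting error when its interval leaves out 0. The window and interval code was tested on simulated data.

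Genes named are the 12 tallest with a summit within 100 bp, the tallest of each chromosome, the 8 tallest in all lists, the 5 tallest not bound, the largest clusters and bound members of the lists. Others were picked after their values were seen. The members and lists were chosen with earlier results of these data known. Python 3.11.15, pandas 2.3.3, numpy 2.4.6, scipy 1.17.1 and matplotlib 3.10.9 were used. Alternatives tried were other lists, windows, IDR thresholds, units of counting and gene definitions.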

Additional observations from a re-analysis of the deposited data

How the results depend on the processing

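No paired analysis was possible because no groups of samples are compared; contrasts between genes are given within each replicate. The 94 bound genes became 23 to 27 in the lists of single replicates and 19 at a −log10 IDR of 3 or more, and stayed between 73 and 102 under the other alternatives. No X minus autosomes interval left out 0 in any alternative: the difference was -1.80 in the pooled list, -0.38 at the stricter IDR, -0.25 to -0.12 in single replicates and 0.18 to 4.83 otherwise. Clustered minus lone was -0.16 within 100 bp of the gene, -3.24 with 1 gene per peak, -0.60 to 1.09 in single replicates, 8.17 by locus, the 1 interval of these that left out 0, and 1.06 to 5.98 otherwise. Intronic minus intergenic was 2.85 in the pooled list, 1.38 at the stricter IDR, 0.97 with the window of 2000 and 500 bp, 2.10 without coding-window peaks, 0.14 with 1 gene per peak, 2.24 with hosts of any biotype, 1.94 on autosomes alone, -0.15 to 0.13 in single replicates, -4.09 on X alone, -2.25 with unique windows and -0.79 to -0.45 otherwise. For the difference in median ranked signal, X minus autosomes was -3.51, with -6.31 for genes with a summit, -6.58 within 100 bp and -3.35 to -1.24 in single replicates. Clustered minus lone was 2.06, with -2.66 within 100 bp and 1.88 to 4.79 in single replicates. Intronic minus intergenic was 3.37, with 3.11 in the pooled list, 1.99 for genes with a summit, 7.02 within 100 bp and 1.39 to 1.53 in single replicates. The cause of these changes was not tested. Unknown depth and 2 replicates limit every height.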
